A study of Sus scrofa with 6 samples.

Results

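The genes described here fold proteins or respond when folding fails: heat shock proteins and their co-chaperones, the folding enzymes of the endoplasmic reticulum (ER), and the regulators of the ER stress response. The rule goes by gene symbol and uses no measured value. A gene belongs to the set if its symbol begins with HSPA, HSPB, HSPD, HSPE, HSPH, HSP90, DNAJ, PDIA or ERO1, or with CCT followed by a digit, or is 1 of 12 exact symbols (CALR, CANX, XBP1, DDIT3, ATF4, ATF6, HERPUD1, SEL1L, EIF2AK3, ERN1, P4HB and TRIB3). By this rule 59 of the 6765 genes named on the array were members, measured by 99 probe sets. A gene with several probe sets was represented by the brightest, that is, the one whose values averaged highest on the 6 arrays. Of the 12 exact symbols, 5 were measured (CALR, CANX, XBP1, DDIT3 and ATF4); no probe set carried any of the other 7, so the ER stress sensors and the ER-associated degradation genes named in the rule are not analysed here.

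The study compared IPEC-1, an epithelial cell line from the small intestine of the pig, in air-liquid interface culture (ALI) and in submerged membrane culture (SMC). Both were grown on porous inserts and kept without serum at the end of culture. ALI cells lay under a thin liquid film on their apical side and SMC cells under a column of medium. RNA of 3 ALI and 3 SMC cultures was measured on 6 GeneChip Porcine Genome Arrays, and passages P109, P111 and P113 (replicates 1, 2 and 3) each gave 1 array of either group. All arrays come from a single line, so the spread is that of cultures and not of animals. The labels give jejunum as the source, whereas their free-text description names liver.

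Chaperones bind unfolded stretches of other proteins. HSP70 proteins do so in cycles of ATP hydrolysis that J-domain (DNAJ) co-chaperones start, HSP90 proteins finish the folding of selected clients, small heat shock proteins hold proteins that would aggregate, and the CCT ring folds actin and tubulin. In the ER, the HSP70 protein BiP (HSPA5), the HSP90 protein GRP94 (HSP90B1) and the lectins calnexin (CANX) and calreticulin (CALR) act on secreted and membrane proteins, while disulfide isomerases form and rearrange disulfide bonds with oxidising power passed on by the oxidase ERO1A. When unfolded proteins collect in the ER, the unfolded protein response raises many of these genes through the transcription factors XBP1, ATF6 and ATF4, and DDIT3 (CHOP) is a late member of the ATF4 arm. Epithelial cells of the gut make and secrete glycoproteins and depend on this machinery.

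The arrays had like distributions, with median log2 values from 6.33 to 6.38. The 8 epithelial markers averaged 11.55 to 11.66 on the log2 scale in ALI and 11.55 to 11.81 in SMC. The 7 enterocyte markers measured averaged 4.92 to 5.09 and 4.99 to 5.21. Of these, 3 (DPP4, FABP1 and FABP2) had group means below the 25% quantile of each array (4.51 to 4.61). Others lay above it, with means in ALI and SMC of 8.52 and 8.67 for APOA1, 6.12 and 6.56 for VIL1 and 5.27 and 5.34 for ANPEP. Markers of fibroblasts and smooth muscle averaged 5.60 to 5.77, of endothelium 4.72 to 5.13 and of leukocytes 4.66 to 4.77 over all arrays. Of these marker genes, PECAM1 alone passed the test (-0.50, adjusted p = 0.0448). The log2 of the summed signal of all 5 endothelial markers was 7.79 to 8.04 in ALI and 8.14 to 8.27 in SMC, and 3 of the 5 (CDH5, KDR and TEK) had means below the 25% quantile. The gap between 3′ and 5′ control probe sets was larger on every ALI array than on every SMC array in 2 of 10 pairs and smaller in 2. The part of either in the results on chaperones was not tested.

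In ALI-cultured cells compared with SMC, 1 of the 59 genes passed the test. ERO1A, the oxidase that recharges disulfide isomerases in the ER, was lower in ALI by more than 4-fold, and the measured differences of the other 58 genes were all below 1.5-fold. Of the 59 members, 0 were higher at an adjusted p under 0.05 in the limma fit, where 1.02% of all genes were higher, and 1 was lower (1.69% of members, against 1.51% of all genes). At an unadjusted p under 0.05, limma gave 4 members higher (6.78%, against 7.10% of all genes) and 5 lower (8.47%, against 8.91%). The t-test of the study's methods gave 5 higher (8.47%, against 7.10% of all genes) and 5 lower (8.47%, against 7.07%), and 0 after adjustment. These shares of all genes also stand behind the unadjusted counts given for each role group and list. With the passage as a block, 0 members were higher (2.25% of all genes) and 2 were lower (3.39% of members, 3.75% of all genes), the added gene being the cytosolic co-chaperone DNAJB1. The shares of members called lower lay near those of all genes.

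The median log2 difference (ALI minus SMC) of the members was -0.05, with quartiles of -0.16 and 0.07, and that of all genes was 0.01, with quartiles of -0.13 and 0.13. Positive differences were found in 24 members and negative ones in 35. ERO1A was the single member past a 1.5-fold difference (0.585 on the log2 scale). The other 58 ran from -0.56 for DNAJB1 to 0.51 for DNAJC19. For 44 members (74.6%) the whole 95% interval of the difference lay within 1.5-fold in either direction, as it did for 76.1% of all genes. In 7 members (11.9%) every ALI array was above every SMC array, against 11.0% of all genes, and in 8 members (13.6%) every ALI array was below, against 10.9% of all genes. With fewer arrays to separate, the shares were larger for members and for all genes. Without ALI replicate 1, 12 members (20.3%) were higher on every ALI array, against 14.9% of all genes. Without ALI replicate 3, 13 members (22.0%) were lower, against 18.9%, and without SMC replicate 3, 16 members (27.1%) were lower, against 18.8%.

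**Figure D1:**
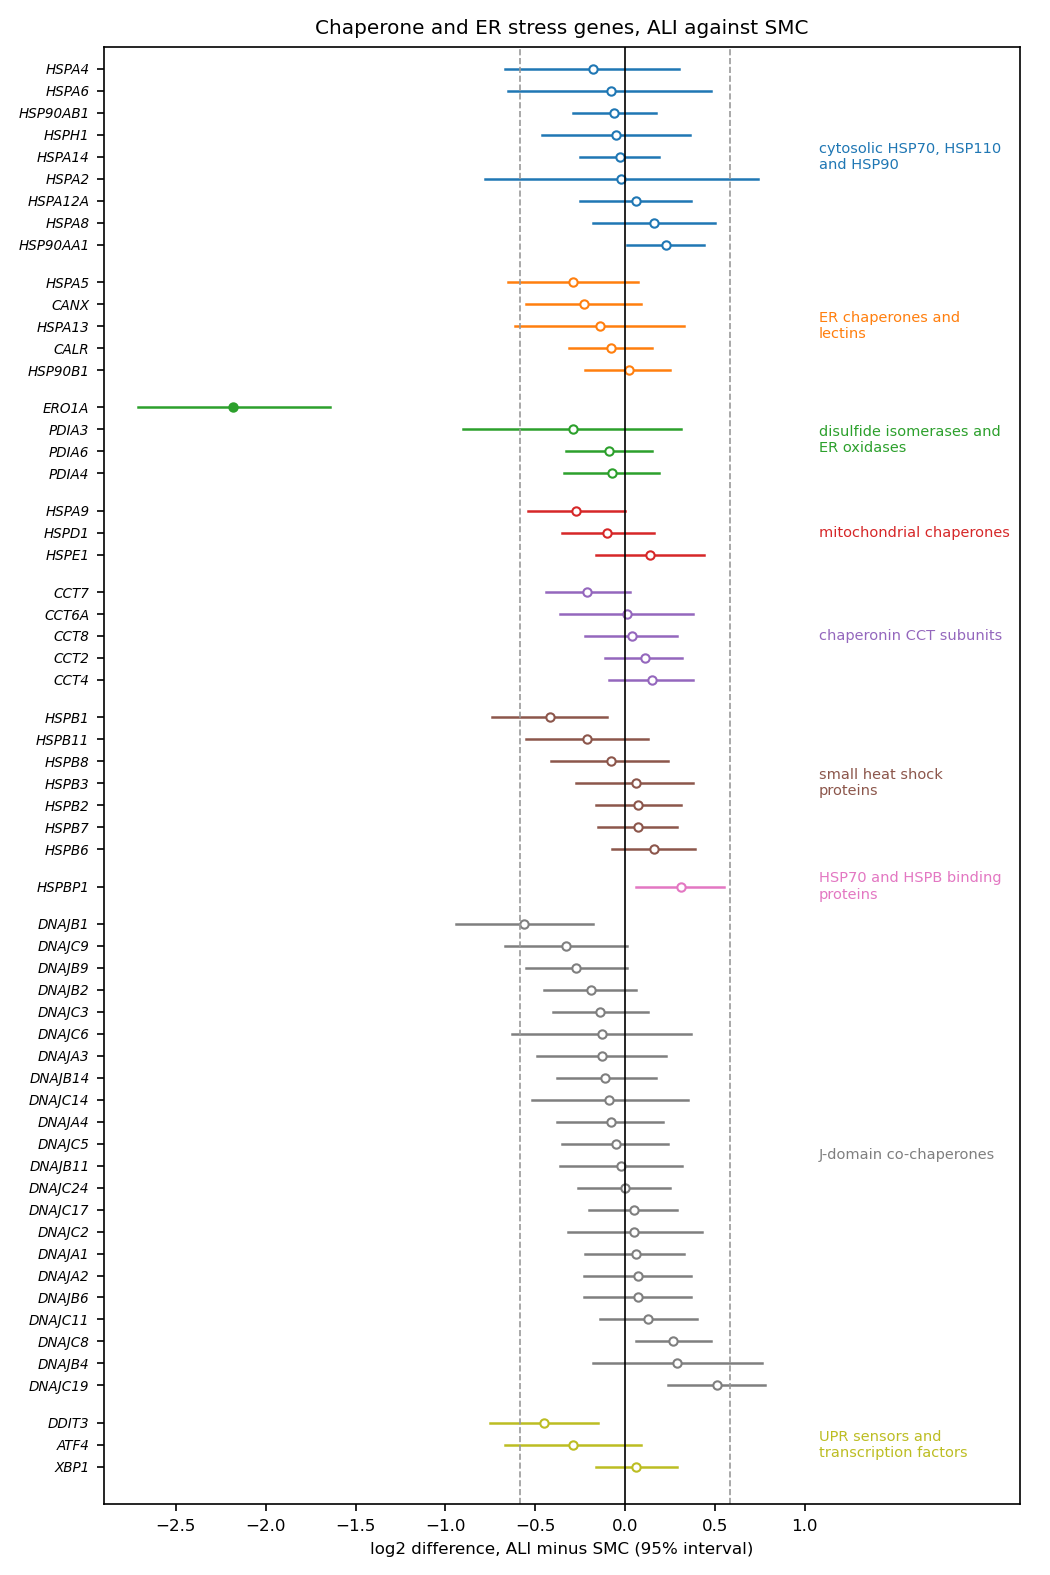
Log2 difference between ALI and SMC (x axis) of the 59 chaperone and ER stress genes, with the 95% interval of the limma fit as a line, grouped by role and ordered by size; the filled point passed the test and dashed lines mark 1.5-fold. ERO1A lies alone at -2.18, and the other 58 genes lie between -0.56 and 0.51.

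ERO1A had log2 values of 7.05, 7.28 and 6.99 in the ALI arrays of passages P109, P111 and P113. In the SMC arrays of the same passages it had 9.85, 9.11 and 8.88. The groups were far apart, and the SMC values spread more widely (SD 0.506 over 3 arrays) than the ALI values (SD 0.154 over 3 arrays). The mean fell from 9.28 to 7.10, a log2 difference of -2.18 (SE 0.23, 95% interval -2.71 to -1.64, adjusted p = 0.00521), or 4.52-fold lower. On this interval ALI cells held between 15.3% and 32.0% of the SMC signal. ERO1A was lower in each passage, by -2.80, -1.83 and -1.89, and the largest step came from the high SMC array of passage P109. Among all 6765 genes it had the 4th lowest difference and stood at rank 22 by p. It was measured by 1 probe set. In RNA of whole cultures, fewer cells with the transcript and less transcript per cell cannot be told apart. Beyond its role in disulfide formation, ERO1A is known as a gene induced by low oxygen as well as by ER stress.

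**Figure D2:**
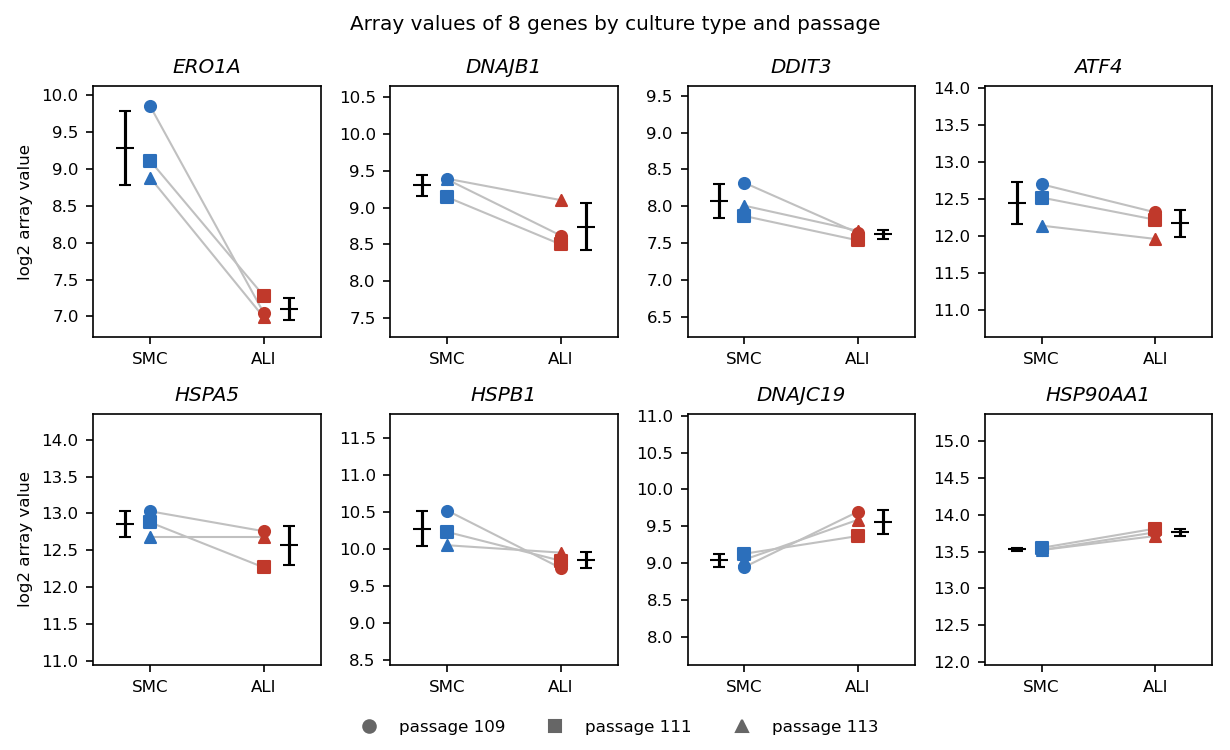
Log2 array values (y axis, the same span in each panel) of 8 genes in SMC (blue) and ALI (red); gray lines join the arrays of 1 passage, and the bars beside the points give the mean and SD of 3 arrays. ERO1A is lower in ALI in all 3 passages with no overlap between the groups, while the ALI and SMC values of the other genes lie within 1 log2 unit of each other in every passage.

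None of the 3 disulfide isomerases among the members (PDIA3, PDIA4 and PDIA6) passed the test. P4HB had no probe set, and related enzymes outside the symbol rule were counted with the further genes of ER folding. By the brightest probe set, none of the 3 members was lower or higher at an unadjusted p under 0.05 in limma or in the t-test. PDIA6 had 11.48, 11.37 and 11.51 in ALI and 11.64, 11.53 and 11.45 in SMC, a difference of -0.09 (95% interval -0.33 to 0.15, adjusted p = 0.750). PDIA4 differed by -0.07 (95% interval -0.34 to 0.19, adjusted p = 0.822). For both genes the groups overlapped and the interval left out a 1.5-fold difference. PDIA3 (ERp57), the isomerase that works with calnexin and calreticulin on glycoproteins, had 11.49, 10.52 and 11.66 in ALI and 11.55, 11.46 and 11.54 in SMC. Its difference of -0.29 (95% interval -0.90 to 0.31, adjusted p = 0.677) rested on ALI replicate 2, and without that array it was 0.06. The interval does not leave out a 1.5-fold decrease. A dimmer probe set of PDIA3 had 8.36, 7.85 and 8.35 in ALI and 8.87, 8.74 and 8.62 in SMC. There the groups did not overlap, and the difference was -0.55 (95% interval -0.91 to -0.19, adjusted p = 0.147) and -0.38 without ALI replicate 2, so that its sign did not rest on that array.

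By the brightest probe set of each gene, the ER chaperones had a median difference of -0.14 over 5 genes. On these probe sets 0 of them passed the test in limma, at an unadjusted p under 0.05, or in the t-test. HSPA5 (BiP), the gene most used as a readout of the unfolded protein response, had 12.76, 12.27 and 12.68 in ALI and 13.03, 12.88 and 12.68 in SMC. The values met at passage P113 and were furthest apart at passage P111, and the difference was -0.29 (SE 0.16, 95% interval -0.65 to 0.07, adjusted p = 0.442), or -0.14 without ALI replicate 2. HSP90B1 (GRP94), which is induced along with BiP under ER stress, had 12.58, 12.47 and 12.54 in ALI and 12.63, 12.47 and 12.44 in SMC. These values overlapped, with a difference of 0.02 (95% interval -0.22 to 0.25, adjusted p = 0.961). The other probe set of HSP90B1 had 12.30, 12.23 and 12.38 in ALI and 12.55, 12.49 and 12.45 in SMC, without overlap, and a difference of -0.19 (95% interval -0.42 to 0.03, adjusted p = 0.416). The lectin CALR differed by -0.08 (95% interval -0.31 to 0.15, adjusted p = 0.766) and the lectin CANX by -0.23 (95% interval -0.55 to 0.09, adjusted p = 0.509). On the brightest probe sets the interval lay within 1.5-fold for HSP90B1, CALR and CANX, and for HSPA5 and the ER HSP70 protein HSPA13 (-0.14, 95% interval -0.61 to 0.33) it did not. The dimmer probe set of HSPA13 gave -0.42 (95% interval -0.83 to -0.01, adjusted p = 0.342), without overlap of the groups. CANX ran from -0.45 to 0.00 over 6 probe sets, and the one at -0.35 had an interval wholly below 0 (-0.60 to -0.10, adjusted p = 0.181).

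None of the 3 transcription factors of the unfolded protein response that were measured passed the test, and at an unadjusted p under 0.05 DDIT3 alone was lower in limma and in the t-test. XBP1, which is both a target and an effector of the IRE1 and ATF6 arms, had 12.20, 12.29 and 12.35 in ALI and 12.22, 12.18 and 12.25 in SMC. Its difference was 0.06 (95% interval -0.16 to 0.29, adjusted p = 0.821), and the interval lay within 1.5-fold. The value does not separate spliced XBP1 RNA, which encodes the active factor, from unspliced RNA. ATF4, the factor of the PERK arm and of the amino acid response, had 12.32, 12.22 and 11.96 in ALI and 12.70, 12.52 and 12.14 in SMC. ATF4 was lower in ALI within each passage (-0.38, -0.30 and -0.18), but the values of passage P113 were low in both groups, so that the groups overlapped, and the difference of -0.29 did not pass the test (SE 0.16, adjusted p = 0.474, and 0.177 with the passage as a block). DDIT3 (CHOP) had 7.64, 7.54 and 7.67 in ALI and 8.32, 7.87 and 8.01 in SMC. All ALI values were below all SMC values, with a difference of -0.45 (SE 0.13, 95% interval -0.75 to -0.15) that did not pass after adjustment (adjusted p = 0.159, and 0.0699 with the block).

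The cytosolic HSP70, HSP110 and HSP90 chaperones comprised 9 genes between -0.18 (HSPA4) and 0.23 (HSP90AA1), with a median of -0.03. The HSP70 genes HSPA1A, HSPA1B and HSPA1L are not among the members measured, so nothing is said of them here. In limma 0 of them passed, and 1 was higher at an unadjusted p under 0.05, as in the t-test. By its brightest probe set HSP90AA1, the inducible cytosolic HSP90, had 13.76, 13.81 and 13.71 in ALI and 13.52, 13.55 and 13.52 in SMC. There the ALI values were all above the SMC values, and the difference of 0.23 (95% interval 0.01 to 0.44) did not pass after adjustment (adjusted p = 0.321). A dimmer probe set of HSP90AA1 went the other way at -0.36. HSP90AB1, the constitutive form, differed by -0.06 (95% interval -0.29 to 0.17, adjusted p = 0.846). HSPH1, an HSP110 protein and nucleotide exchange factor induced by heat shock, differed by -0.05 (95% interval -0.46 to 0.36, adjusted p = 0.936). HSPA4, of the same HSP110 family, differed by -0.18 (95% interval -0.67 to 0.30, adjusted p = 0.755). HSPA8, the constitutive HSC70, had 12.24, 12.65 and 12.58 in ALI and 12.31, 12.53 and 12.15 in SMC, with overlapping groups and a difference of 0.16 (95% interval -0.18 to 0.50, adjusted p = 0.680). HSPA2 had the widest interval of the group (-0.78 to 0.74), since its ALI values of 4.81, 4.37 and 5.87 were scattered. HSPA12A lay below the 25% quantile of array values in both groups.

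The small heat shock proteins had a median difference of 0.06 over 7 genes, and 0 passed in limma, with 1 lower at an unadjusted p under 0.05, as in the t-test. That gene was HSPB1 (HSP27), which guards actin filaments and holds unfolding proteins. HSPB1 had 9.74, 9.84 and 9.95 in ALI and 10.52, 10.23 and 10.05 in SMC. All ALI values were below all SMC values, although the gap was -0.78 at passage P109 and -0.10 at passage P113, and the difference of -0.42 (95% interval -0.74 to -0.10) did not pass after adjustment (adjusted p = 0.207). HSPB11 differed by -0.21 (95% interval -0.55 to 0.13, adjusted p = 0.577); it carries a small heat shock protein symbol but is known as a part of the ciliary transport complex. HSPB3 lay below the 25% quantile of array values in both groups. HSPBP1, an exchange factor of HSP70 whose symbol also begins with HSPB, had 7.91, 7.84 and 8.06 in ALI and 7.72, 7.56 and 7.61 in SMC. Its groups did not overlap, and the difference of 0.31 (95% interval 0.06 to 0.55) did not pass after adjustment (adjusted p = 0.236).

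The J-domain co-chaperones, which deliver clients to HSP70 and set its ATP cycle, were the largest role group with 22 genes and a median difference of -0.04. None passed the limma test, while 2 of the 22 were higher and 1 lower at an unadjusted p under 0.05, as in the t-test, against 7.10% and 8.91% of all genes in limma. DNAJB1 (HSP40), the main heat-inducible partner of cytosolic HSP70, had 8.62, 8.50 and 9.10 in ALI and 9.38, 9.14 and 9.39 in SMC. The ALI values were all lower, but that of passage P113 was close to SMC. The difference of -0.56 (SE 0.17, 95% interval -0.94 to -0.18) did not pass without the block (adjusted p = 0.160) and did with it (adjusted p = 0.0381). It was also called without ALI replicate 3, at -0.74 (adjusted p = 0.0385). DNAJC19, a co-chaperone of the mitochondrial protein import motor, lay at the other end of the set. It had 9.70, 9.37 and 9.59 in ALI and 8.95, 9.13 and 9.05 in SMC. These groups did not overlap, and the difference of 0.51 (SE 0.12, 95% interval 0.24 to 0.78) did not pass with either fit (adjusted p = 0.0815, and 0.0572 with the block). DNAJB9, DNAJB11 and DNAJC3, 3 members located in the ER as partners of BiP, ran from -0.27 to -0.02, and all 3 intervals lay within 1.5-fold. SEC63, an ER J-domain protein outside the symbol rule, differed by 0.11 (95% interval -0.13 to 0.35, adjusted p = 0.695). The other probe sets of DNAJB9 gave -0.32 (95% interval -0.56 to -0.08, adjusted p = 0.211), without overlap of the groups, and -0.11 (95% interval -0.33 to 0.12, adjusted p = 0.686).

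For the 3 mitochondrial chaperones and the 5 CCT subunits, the interval of the brightest probe set lay within 1.5-fold in each case, while dim probe sets of HSPA9 (-0.56, 95% interval -0.88 to -0.24) and CCT6A (-0.36, 95% interval -0.75 to 0.03) had intervals that did not. HSPD1 (HSP60) had 12.07, 12.09 and 12.06 in ALI and 12.35, 12.09 and 12.07 in SMC, a difference of -0.10 (95% interval -0.35 to 0.16, adjusted p = 0.747). Its lid HSPE1 (HSP10) differed by 0.14 (95% interval -0.16 to 0.44, adjusted p = 0.686). HSPA9 (mortalin), the HSP70 of the mitochondrial matrix, had 11.52, 11.44 and 11.49 in ALI and 11.82, 11.89 and 11.55 in SMC. Its groups did not overlap and its difference was -0.27 (95% interval -0.54 to 0.00, adjusted p = 0.344). HSPA9 was the single member represented by a probe set of a type that can also match related transcripts. The 5 CCT subunits measured ran from -0.21 (CCT7, adjusted p = 0.403) to 0.15 (CCT4, adjusted p = 0.567), with a median of 0.04. In limma 0 of the 8 genes of both groups passed, and at an unadjusted p under 0.05 HSPA9 alone did; the t-test gave 1 CCT subunit higher and 1 lower.

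Of 23 members with more than 1 probe set, 21 had probe sets that differed from each other by no more than 0.585, and in 7 the sign of the difference was not the same for all. HSPA8 had the widest gap. Its brightest probe set gave 0.16, while the other 3 gave -0.50, -0.46 and -0.41, each with an interval wholly below 0. The probe set at -0.50 had 9.66, 9.95 and 9.70 in ALI and 10.16, 10.26 and 10.38 in SMC, with adjusted p = 0.0905 and, with the passage as a block, 0.0460. HSP90AA1 gave 0.23 with its brightest probe set and -0.02, -0.05, -0.36 and -0.01 with the others. Its probe set at -0.36 had an interval wholly below 0 (-0.66 to -0.07, adjusted p = 0.248), without overlap of the groups. The 3 probe sets of PDIA3 all lay below 0, at -0.29, -0.55 and -0.15. HSPA9 gave -0.27, -0.17 and -0.56, and CANX gave values between -0.45 and 0.00 over 6 probe sets. The sign of the difference for HSPA8 and HSP90AA1 thus depended on the probe set. Of all 99 probe sets of the members, 1 passed without the block and 3 with it (those of ERO1A and DNAJB1 and the named set of HSPA8).

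**Figure D3:**
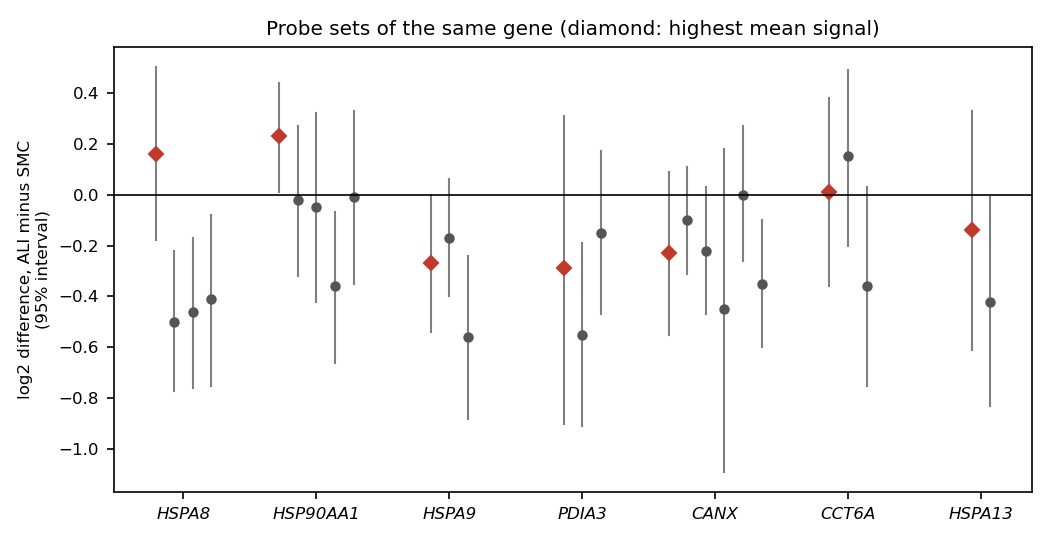
Log2 difference between ALI and SMC (y axis) for each probe set of 7 genes, with 95% intervals of the limma fit; the red diamond is the probe set with the highest mean signal. For HSPA8 the diamond lies at 0.16 and the other 3 probe sets between -0.50 and -0.41.

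Other genes of the ER and of the chaperone cycle, taken from lists outside the symbol rule, were read from the same fit. None of the 4 lists held a gene that was higher, without or with the passage as a block. Of 26 measured genes for translocation into the ER, glycosylation and signal peptide removal, 0 were lower, and the list median was -0.02. At an unadjusted p under 0.05 limma gave 3 of the 26 higher and 2 lower (7.10% and 8.91% of all genes), and the t-test 3 and 3 (7.10% and 7.07%). STT3A, a catalytic subunit of oligosaccharyltransferase, was farthest from 0 at -0.36 (adjusted p = 0.238). Of 31 co-chaperones and heat shock regulators of cytosol and mitochondria, 0 were lower, and the median was 0.02. Here the unadjusted counts were 1 higher and 2 lower in both tests. PTGES3 (p23), a co-chaperone of HSP90, was farthest from 0 at -0.44 (adjusted p = 0.176).

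Of 30 further genes of ER folding, quality control and degradation, 7 had a positive and 23 a negative difference, with a median of -0.15. Over all genes 3522 differences were positive and 3243 negative. In this list 1 gene was lower, against 1.51% of all genes, and 2 with the passage as a block, against 3.75%. At an unadjusted p under 0.05 limma gave 0 higher and 5 lower (7.10% and 8.91% of all genes), and the t-test 1 and 4 (7.10% and 7.07%). The gene that passed without the block was QSOX1, another disulfide-forming oxidase, which acts in the late secretory pathway and outside the cell. QSOX1 had 9.70, 9.36 and 9.79 in ALI and 10.86, 10.83 and 10.78 in SMC. All ALI values lay below all SMC values, by -1.16, -1.47 and -0.99 within the passages, and the difference was -1.21 (SE 0.13, 95% interval -1.51 to -0.91, adjusted p = 0.00537), or 2.31-fold lower. Dimmer probe sets of QSOX1 gave -0.57 (adjusted p = 0.0767, and 0.0223 with the block) and -0.04 (adjusted p = 0.911). With the passage as a block FKBP14, a prolyl isomerase of the ER known to act on collagens, passed as well. FKBP14 had 6.30, 6.98 and 6.85 in ALI and 7.05, 7.65 and 7.62 in SMC, and its difference was -0.73 (adjusted p = 0.168, and 0.00674 with the block). This probe set gave -0.75, -0.67 and -0.76 in the 3 passages. Both dimmer probe sets also passed with the block, at -0.73 and -0.62, with passage values that spread from -0.90 to -0.44 and from -0.89 to -0.32. HYOU1, the exchange factor of BiP, differed by -0.42 (adjusted p = 0.432).

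The known targets of ATF4 had the lowest median of the lists, -0.24 over the 16 genes measured of 23 listed, with quartiles of -0.57 and 0.02. Of the 16, 5 had a positive and 11 a negative difference. In the fit without the block 0 passed, while 6 of the 16 were lower at an unadjusted p under 0.05 in limma, against 8.91% of all genes, and 3 in the t-test, against 7.07%. With the passage as a block 5 of the 16 were lower, against 3.75% of all genes, and 0 were higher. VLDLR, a lipoprotein receptor, had 8.94, 8.90 and 9.71 in ALI and 10.00, 10.19 and 10.54 in SMC, with no overlap and a difference of -1.06 (SE 0.23, adjusted p = 0.0684, and 0.00288 with the block). Its dimmer probe set gave -0.30 and passed neither without the block (adjusted p = 0.241) nor with it (adjusted p = 0.166). ASNS, asparagine synthetase, had 10.47, 10.74 and 9.74 in ALI and 11.56, 11.44 and 10.54 in SMC. Its groups overlapped because the values of passage P113 were low in both cultures, and the difference was -0.87 (SE 0.32, adjusted p = 0.263, and 0.00579 with the block). GARS, the glycyl-tRNA synthetase, differed by -0.81 (adjusted p = 0.126, and 0.00489 with the block), and its dimmer probe sets passed without the block at -0.95 (adjusted p = 0.0428) and -0.89 (adjusted p = 0.0463). CEBPG, a partner of ATF4 on DNA, differed by -0.63 (0.0461 with the block) and MTHFD2, a mitochondrial folate enzyme, by -0.55 (0.0252 with the block), both as adjusted p. Of the 5 genes with a positive difference, ATF3, a stress-induced target of ATF4, was the highest at 0.29 (adjusted p = 0.446).

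**Figure D4:**
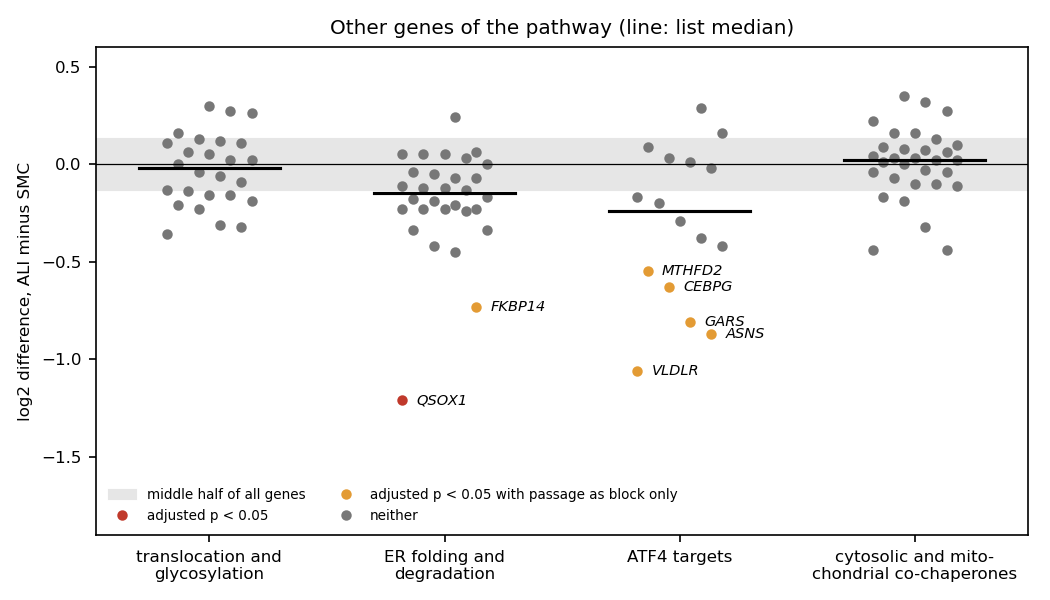
Log2 difference between ALI and SMC (y axis) of the genes in 4 lists outside the symbol rule, 1 point per gene; black lines are list medians, the gray band holds the middle quartiles of all genes, red passed the test and orange passed only with the passage as a block. The named points lie below 0: QSOX1 and FKBP14 among ER folding genes and 5 targets of ATF4.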

How the data were processed

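RNA of 3 ALI and 3 SMC cultures was measured on GeneChip Porcine Genome Arrays. The authors analysed the arrays with Affymetrix GCOS (version 1.1.1 in the submitters' processing notes), checked them with arrayQualityMetrics and normalised them by GC-RMA. They deposited log2 values, 1 column per array, and the table itself names no normalization. Genome build and annotation are not given in the sources used here. Arrays have no depth, and their number limits the precision.

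The values were not scaled again. Without the 124 control probe sets, 23999 remained and went into a linear model of culture type alone in limma 3.58.1 (R 4.3.3; lmFit, then eBayes). The threshold was an adjusted p of 0.05, where the Benjamini-Hochberg adjustment spanned all of them. Symbols came from the platform annotation: 10069 probe sets had 1 symbol, 198 several and 13732 none, and only the first were named. A 95% interval is that of the moderated difference. The study's methods name a t-test without further detail. A t-test with pooled variance was run as an alternative, and it need not repeat the study's own. With 3 against 3 arrays an exact permutation test cannot go below 0.1, so none was used. The fit was tested on simulated data.

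The main fit held no passage term, so its standard errors, intervals and calls do not use the pairing of arrays by passage. A second fit took the passage, which the labels give, as a block. Deviations from the group means correlated within passages P109, P111 and P113 at 0.340, 0.140 and 0.451 over probe sets. Values with the passage as a block are given where they changed the call of a named gene or a count of calls. They are also given for ATF4, DDIT3, DNAJC19 and the dimmer probe set of VLDLR, where no call changed. Intervals and the counts made from them are those of the fit without the block. Alternatives were quantile normalization, median centring, filters on dim probe sets, an intensity trend, averaging the probe sets of a gene and leaving out single arrays.

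The members and all gene lists, which came from general knowledge, were chosen with earlier results of these data known. Genes named in the text are members called with or without the block, the 2 members of each role group with the largest difference, a fixed list of main chaperones and stress regulators, and of each pathway list the genes called or else the gene farthest from 0. CCT6A, HSPA2, HSPA12A, HSPA13, HSPB3, PDIA4, PDIA6, HYOU1, ATF3 and the ER J-domain proteins were named after their values were seen. No sequence or coordinate is given, and the probe positions are not analysed here.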

Additional observations from a re-analysis of the deposited data

How the results depend on the processing

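ERO1A was called lower in every limma setting run (log2 differences of -2.37 to -1.89, adjusted p of 0.00104 to 0.0378) and lost its call under the methods' t-test after adjustment (0.183), which called 0 genes in all. QSOX1 lost its call under that t-test as well. For members higher, the count was 0 in every setting except the unadjusted t-test (5, or 8.47%, against 7.10% of all genes). For members lower it was 1 in most settings (1.69% in the main fit, against 1.51% of all genes). With the passage as a replicate block it was 2 (3.39%, against 3.75%). Under the t-test it was 0 with adjustment and 5 without (8.47%, against 7.07%). With single arrays left out it was 1 to 2. The 2 were found without ALI replicate 3, where 106 of all 6765 genes were lower. Members without overlap between the groups numbered 7 to 12 (higher, 11.9% to 20.3%, against 14.9% to 17.7% of all genes) and 9 to 16 (lower, 15.3% to 27.1%, against 13.3% to 18.9%) with single arrays left out. Under the unadjusted t-test, 3 of 26 translocation genes, 4 of 30 ER folding genes, 3 of 16 ATF4 targets and 2 of 31 co-chaperones were lower. The share of all genes was 7.07%. For ER folding the count was 2 with the block (3.75% of all genes) and 0 under the adjusted t-test. For ATF4 targets it was 5 with the block (3.75% of all genes) and 0 to 1 with single arrays left out. The 1 was found without ALI replicate 3 or without SMC replicate 3, where 106 and 83 of all 6765 genes were lower. Over a gene's probe sets the mean difference turned to -0.04 for HSP90AA1, -0.09 for HSP90B1 and -0.30 for HSPA8, and that of QSOX1 was -0.61 (adjusted p = 0.0271). With single arrays left out, differences ran from -0.02 to 0.08 for HSP90B1, -0.20 to 0.13 for HSPH1 and -0.51 to 0.06 for PDIA3, and no called gene changed sign. Quantile normalization, median centring, the intensity trend and filters at a mean log2 value above 4 or 6 moved none of the counts for members or lists by more than 1.5 times. Over all genes, 69 were higher and 102 lower, whereas leaving out ALI replicate 1 gave 19 higher and 29 lower, and leaving out SMC replicate 2 gave 18 higher and 39 lower. The number of arrays limits the precision.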

Other observations

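The low PDIA3 value of ALI replicate 2 was shared in part by some other ER genes, a pattern chosen after the values were seen. This array was the lowest of all 6 for 6 of the 9 members that are ER chaperones, lectins, disulfide isomerases or ERO1A (66.7%). The share was 30.0% for the 30 other ER folding genes, 22.0% for the 50 other members and 21.5% for all genes. Among the 9 and the 30 genes, its lowest gaps to the mean of the other ALI arrays were -1.06 for PDIA3 and -0.90 for FKBP2 (a prolyl isomerase of the ER). Next came -0.54 for TMX1 (a membrane-bound thioredoxin-like isomerase), -0.45 for HSPA5, -0.44 for ERP29 and -0.43 for CANX. The median of this gap was -0.14 over the 9 genes, -0.06 over the 30 and -0.04 over all genes. A gap past 1.5-fold below was found in 1 of the 9, 1 of the 30 and 1 of the 50 other members. Over all genes the share was 2.19%, so such low values were not limited to ER genes. What sets this array apart was not tested.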
